A study of Mus musculus with 2 samples.

Results

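The 34 genes described here are targets of type I interferon: Isg15 and Usp18, the 4 Ifit genes, the 5 Oas and Oasl genes, the antiviral effectors Rsad2, Mx1, Cmpk2, Isg20, Ifitm3 and Bst2, the transcription factors Irf7, Stat2 and Irf9, the nucleic acid sensors Zbp1, Ifih1, Ddx58, Dhx58 and Ifi204, and the other targets Ifi44, Ifi47, Rtp4, Ddx60, Xaf1, Phf11b, Slfn5, Ifi27l2a and Trim30a. They were picked by gene symbol, with earlier results of these data known, and all 34 were found among the 47730 features of the matrices. RNA was counted cell by cell, as unique molecular identifiers (UMIs), with a droplet 3′ assay (10x Genomics) in tumour-infiltrating cells. The cells had been sorted from the tumours of C57BL6\J mice as live and positive for CD45, which white blood cells carry on their surface. The E2 group was ovariectomised and given E2, the usual short name of estradiol, and the placebo group was ovariectomised and given placebo, so the loss of the ovaries, the strain and the sort were shared. Each group had 1 library. Which tumour was used, how much E2 was given for how long, and how many mice a library pooled is not stated in the sources used here. Every difference below is therefore between these 2 libraries, without a replicate check, and each interval is a 95% interval for counting error only.

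Type I interferons, the interferon-alpha family and interferon-beta, are secreted by cells that sense viral or misplaced self nucleic acid, and they bind a receptor made of Ifnar1 and Ifnar2. The kinases Jak1 and Tyk2 then activate Stat2, which joins Irf9 in a complex that binds the interferon-stimulated response element (ISRE) in the promoters of target genes. In tumours this program is best known from dendritic cells and macrophages, where it goes with the priming of T cells.

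The promoters of 4 members are shown because their genes differed in the comparisons below: Isg15 is a standard readout of the response, Bst2 was higher in the E2 library in each large cluster of those cells, and the class values of Rsad2 and Ifit1 rested on few cells. Each line gives the 250 bases before the RefSeq start of the gene on GRCm38.p6, 5′ to 3′ on the gene's own strand, with matches to the ISRE letters (GAAA, any 2 bases, GAAA), on either strand, in capitals. The windows are chr4:156200819-156201068 (minus strand), chr8:71537473-71537722 (minus strand), chr12:26456453-26456702 (minus strand) and chr19:34640639-34640888 (plus strand).
Isg15: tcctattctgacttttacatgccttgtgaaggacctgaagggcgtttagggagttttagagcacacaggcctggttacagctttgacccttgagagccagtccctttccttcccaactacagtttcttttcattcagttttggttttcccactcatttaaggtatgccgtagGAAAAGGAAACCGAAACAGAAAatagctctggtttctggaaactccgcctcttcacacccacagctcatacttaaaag
Bst2: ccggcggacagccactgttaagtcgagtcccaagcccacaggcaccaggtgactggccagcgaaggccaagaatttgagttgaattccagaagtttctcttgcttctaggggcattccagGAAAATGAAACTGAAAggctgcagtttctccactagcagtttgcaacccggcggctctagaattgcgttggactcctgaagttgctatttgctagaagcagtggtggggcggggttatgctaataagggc
Rsad2: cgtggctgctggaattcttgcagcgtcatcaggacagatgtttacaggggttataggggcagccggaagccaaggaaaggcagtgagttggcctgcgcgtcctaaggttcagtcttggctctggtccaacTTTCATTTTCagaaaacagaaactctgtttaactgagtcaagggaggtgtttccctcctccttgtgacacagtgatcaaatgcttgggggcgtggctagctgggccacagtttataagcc
Ifit1: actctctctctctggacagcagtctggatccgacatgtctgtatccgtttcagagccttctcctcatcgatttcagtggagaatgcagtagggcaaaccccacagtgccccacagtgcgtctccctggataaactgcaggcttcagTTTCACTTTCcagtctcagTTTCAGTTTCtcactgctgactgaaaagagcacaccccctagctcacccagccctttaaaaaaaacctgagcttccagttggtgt
Isg15 held 3 overlapping matches, Bst2 had 2 overlapping ones, Rsad2 had 1 and Ifit1 had 2 apart from each other. RefSeq promoter windows, counted from 250 bases before to 50 bases after the start, were found for 26 of the 34 members. Of these, 16 (61.5%) held the ISRE letters, against 3.44% of all 32851 promoters. The gamma-activated site, TTCNNNGAA on either strand with overlaps allowed, was in 5 of the 26 (19.2%), against 8.30% of all promoters. Both motifs are described as letters only, and neither was used to choose a gene or a cell.

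The E2 library held 5791 barcodes, 52628133 UMIs and a median of 8049 UMIs a barcode, and the placebo library held 3505 barcodes, 24545595 UMIs and a median of 5128 UMIs. After filtering, 5412 E2 and 3306 placebo barcodes were kept. A total of 95 barcode sequences occurred in both libraries and were removed from both before the analysis. Cell classes came from gates on marker genes that hold no member, and a name ends in -like because it rests on such markers. Every marker of a class was over 2-fold higher in that class than in the other cells, apart from the non-immune class, where 6 of 11 were. The gates select cells on these same markers, so this describes the classes and does not test them. The gates took 4788 E2 and 2849 placebo cells and left 11.5% of E2 and 13.8% of placebo cells ungated. Members were compared in the classes where both libraries had 100 cells or more, namely monocyte/macrophage-like cells (1869 E2 and 742 placebo cells), T-like cells (884 E2 and 1065 placebo cells), neutrophil-like cells (537 E2 and 243 placebo cells) and type 2 conventional dendritic-like cells (cDC2-like, 331 E2 and 108 placebo cells). Levels are given as CPM, the usual unit of counts scaled to depth, over all UMIs of the class. As 3′ counts they are not divided by transcript length, and they are compared between cells, not between genes. A limit of 1.5-fold was set on a log2 ratio for which 10 CPM was first added to both libraries, so that the ratio of a low gene comes out too small. A gene counted as measured from 20 UMIs over both libraries. Fewer cells of a kind and less RNA in each such cell cannot be told apart in a sum over a class.

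The members did not share 1 cell class as their main source. Isg15, a ubiquitin-like protein that is joined to other proteins, had its highest level in neutrophil-like cells, 408 CPM in the E2 library and 413 CPM in the placebo library, and was low in B-like cells, at 10.7 CPM in E2 and 8.54 CPM in placebo. Neutrophil-like cells also led for Oasl2 (143 CPM in E2, 210 CPM in placebo), the exonuclease Isg20 (154 CPM in E2 and 139 CPM in placebo) and Trim30a, a ring-finger protein (259 CPM in E2 and 225 CPM in placebo). The same cells held 0 UMIs in both libraries of Mx1, a gene of the Mx family of GTPases. Mx1 was read in other classes, for example in CCR7+ mature dendritic-like cells at 38.2 CPM in E2 and 29.5 CPM in placebo.

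Non-classical monocyte-like cells were highest for Ifitm3, a membrane protein that blocks virus fusion, at 4967 CPM in the E2 library and 3616 CPM in the placebo library. They also led for Ifi27l2a, a small hydrophobic protein of cell membranes (1732 CPM in E2 and 1254 CPM in placebo), and for Zbp1, a sensor of Z-form nucleic acid that can start cell death (149 CPM in E2 and 135 CPM in placebo). Plasmacytoid dendritic-like cells (pDC-like), known as the strongest producers of interferon-alpha, led for Bst2, the tetherin that holds budding virus on the cell surface, at 4032 CPM in E2 and 3589 CPM in placebo. Bst2 is a known surface marker of these cells in mouse, and the next class, cDC2-like cells, had 248 CPM in E2 and 234 CPM in placebo. The pDC-like cells also led for the transcription factor Stat2 (120 CPM in E2 and 140 CPM in placebo). Irf7, which drives interferon-alpha genes, had 93.4 CPM in E2 and 134 CPM in placebo there, where 1 of 21 placebo cells held 11 of the 24 Irf7 UMIs, and 110 CPM in E2 and 82.5 CPM in placebo in non-classical monocyte-like cells. Type 1 conventional dendritic-like cells (cDC1-like) led for Phf11b (141 CPM in E2 and 92.0 CPM in placebo), a PHD-finger protein, and B-like cells for Ddx58 (59.0 CPM in E2 and 85.4 CPM in placebo), the RNA sensor RIG-I. Ifi44 stayed at or below 3.87 CPM in every gated class of both libraries.

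**Figure D1:**
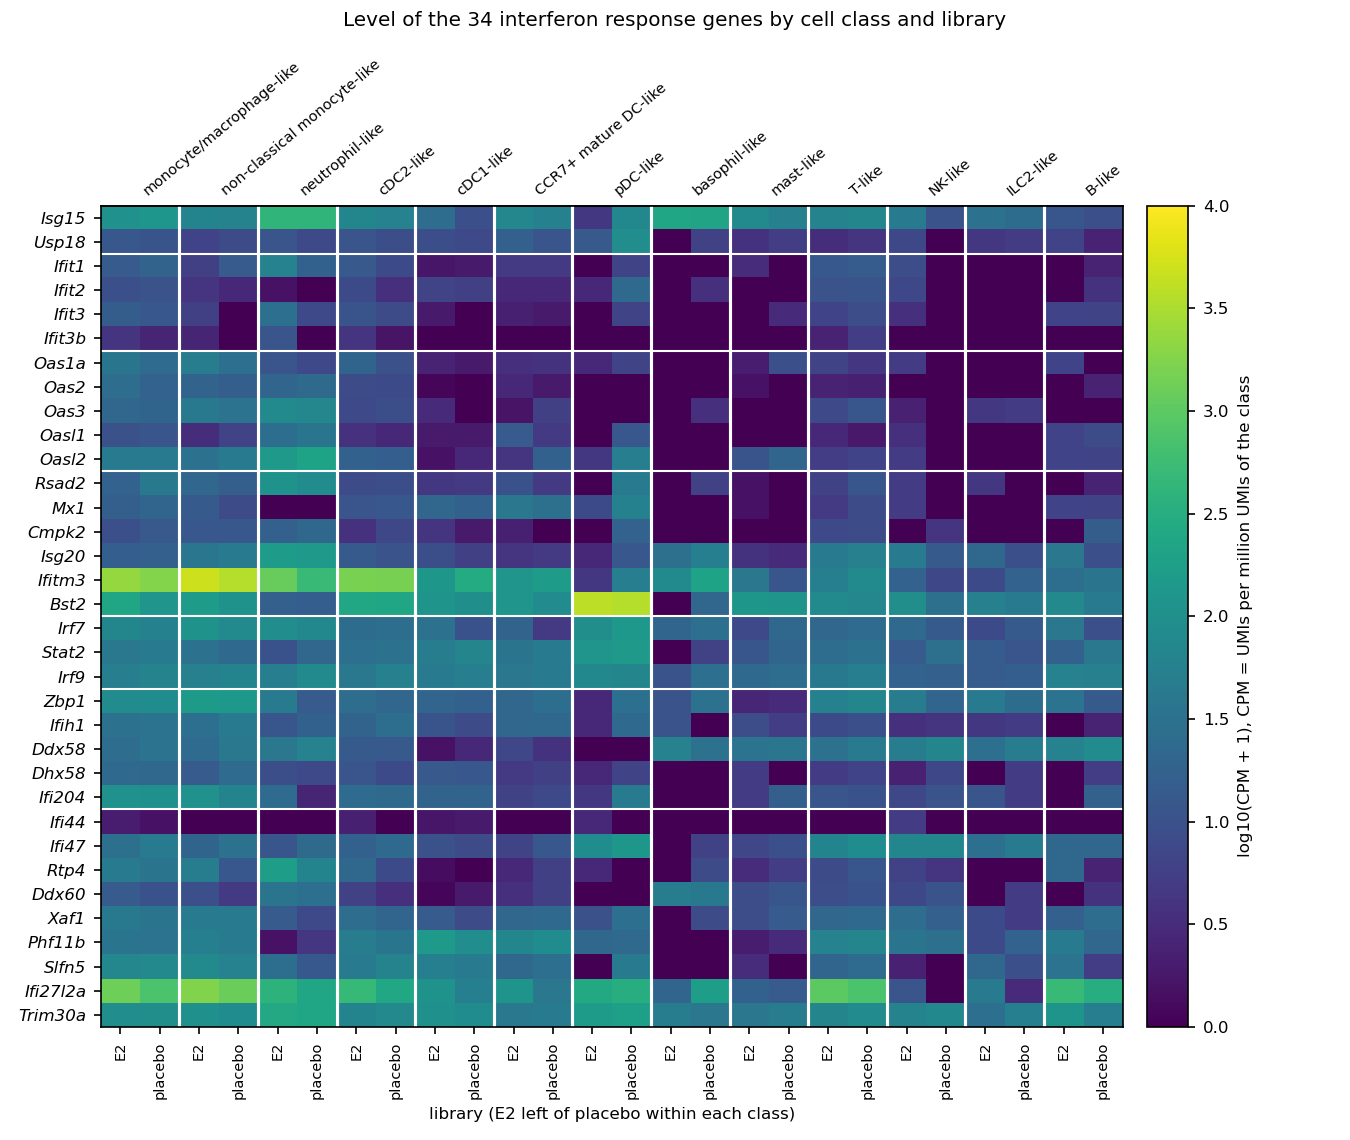
Level of each member (rows, grouped by role with white lines) in 13 gated cell classes, with the E2 library left of the placebo library in each class. Colour is log10(CPM + 1). Ifitm3 and Ifi27l2a are bright in the monocyte classes, Bst2 in pDC-like cells and Isg15 in neutrophil-like and basophil-like cells, and the difference between classes is mostly larger than that between the libraries.

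Over all kept barcodes, the 34 members summed to 3430 CPM in the E2 library and 2533 CPM in the placebo library, a ratio of 1.35 (1.34 to 1.37). That difference was carried by 3 genes. Ifitm3, Ifi27l2a and Bst2 together had 2577 CPM in E2 and 1675 CPM in placebo (1.54, 1.52 to 1.56), and the other 31 members had 853 CPM in E2 and 859 CPM in placebo (0.993, 0.976 to 1.01). A set of 16 core members was named here as a fixed list, and how specific each is to interferon was not tested. The list leaves out Ifitm3, Ifi27l2a and Bst2. The core members (Isg15, Ifit1, Ifit2, Ifit3, Ifit3b, Irf7, Rsad2, Mx1, Oas1a, Oas2, Oas3, Oasl1, Oasl2, Usp18, Ifi44 and Cmpk2) had 299 CPM in E2 and 287 CPM in placebo (1.04, 1.01 to 1.07). These sums also move with the mix of cell classes, so the classes are given one by one.

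**Figure D2:**
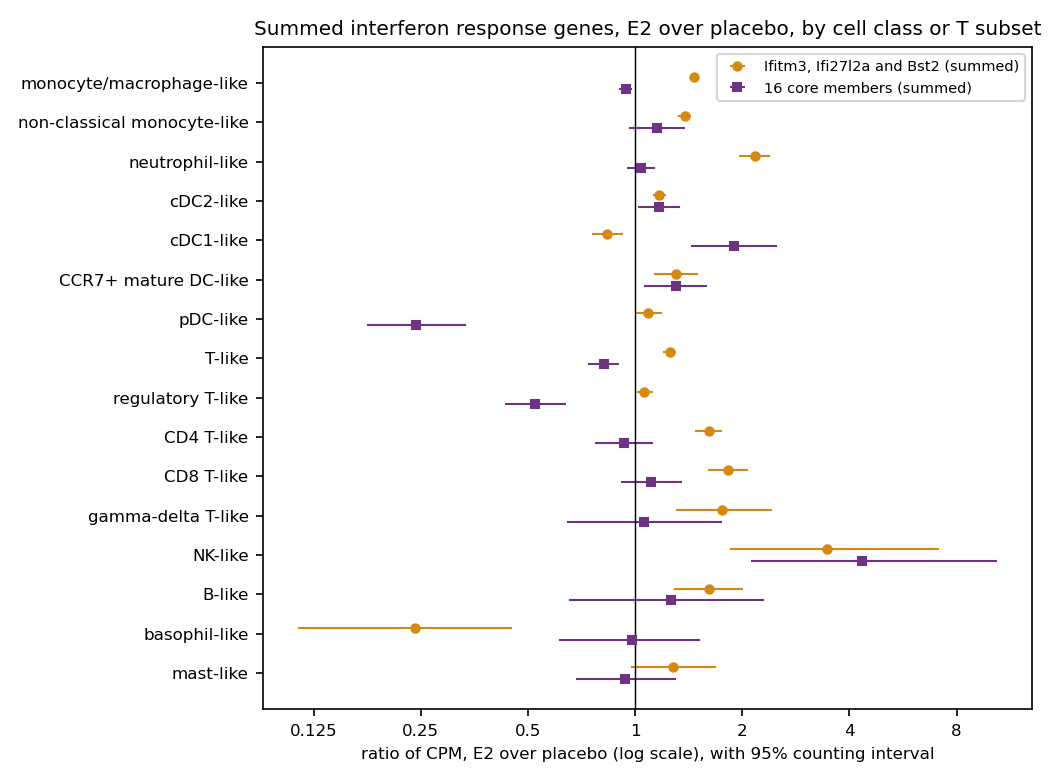
Ratio of summed CPM, E2 over placebo, on a log axis, for Ifitm3, Ifi27l2a and Bst2 together (circles) and for the 16 core members (squares) in each class or T subset. Lines are 95% counting intervals. The circles lie right of 1 in most classes, for example at 2.17 in neutrophil-like cells, while the squares lie on both sides, from 0.243 in pDC-like cells to 4.35 in NK-like cells.

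In monocyte/macrophage-like cells, the class with most cells, the 16 core members had 395 CPM in the E2 library and 419 CPM in the placebo library, a ratio of 0.942 (0.903 to 0.983). The direction of this core value turned, to a log2 ratio of 0.50, when the clusters of the class were weighted alike in both libraries, an alternative chosen after seeing the data. In that mix clusters with few cells weighed as much as the large ones. Ifitm3, Ifi27l2a and Bst2 summed to 3871 CPM in E2 and 2651 CPM in placebo, a ratio of 1.46 (1.44 to 1.48). All 34 members were measured. Ifi27l2a and Bst2 were higher by at least 1.5-fold, where 0.839% of all 12748 measured genes were, and Rsad2 was lower, where 1.30% were. Of the 34 members, 17 lay above 0 and 17 below on the log2 scale, and their median was -0.01, beside -0.03 for all measured genes.

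The 3 abundant membrane proteins were higher in the E2 library, and their UMIs were spread over many cells. Bst2 had 4294 UMIs and 224 CPM in E2, against 872 UMIs and 123 CPM in placebo (1.82, 1.69 to 1.96). Ifi27l2a had 1330 CPM in E2 and 748 CPM in placebo (1.78, 1.73 to 1.83), and Ifitm3 had 2317 CPM in E2 and 1780 CPM in placebo (1.30, 1.28 to 1.33). Many cells shared these UMIs: the fewest cells that together held 50% of them numbered 245 E2 and 93 placebo cells for Bst2, 250 E2 and 86 placebo cells for Ifi27l2a, and 303 E2 and 113 placebo cells for Ifitm3. Bst2 was read in 70.8% of E2 and 56.2% of placebo cells. With each cell thinned to 2000 UMIs and shallower cells left out, the share was 29.7% (27.6 to 31.9%) in E2 and 19.6% (16.7 to 22.7%) in placebo, and in neutrophil-like cells, which are low in Bst2, it was 2.21% in E2 and 2.23% in placebo. For Ifi27l2a the thinned share was 66.3% in E2 (64.0 to 68.4%) and 52.7% in placebo (48.9 to 56.5%), beside 16.1% of E2 and 15.6% of placebo neutrophil-like cells, and for Ifitm3 it was 77.2% in E2 (75.2 to 79.1%) and 73.3% in placebo (69.8 to 76.5%), beside 3.55% of E2 and 2.99% of placebo T-like cells. The median UMI count before thinning was 9721 in E2 and 9291 in placebo cells of this class, 3115 in E2 and 2408 in placebo neutrophil-like cells, and 4269.5 in E2 and 4554 in placebo T-like cells. The class set beside each gene was not the same, and Ifitm3 was not level in neutrophil-like cells. In their clusters 4 and 15, described below, its thinned share was 70.9% and 63.3% in E2 and 52.2% and 39.1% in placebo. In summed level Ifi27l2a was also higher past 1.5-fold in neutrophil-like cells.

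The enzymes and RNA-binding effectors did not move together. Rsad2, or viperin, which makes a chain-terminating nucleotide, had 325 UMIs and 16.9 CPM in the E2 library, against 287 UMIs and 40.5 CPM in the placebo library (0.418, 0.355 to 0.491, log2 ratio -0.91). In the placebo library 1 cell held 117 of the 287 Rsad2 UMIs (40.8%) and the 5 highest cells held 70.7%, while in the E2 library the highest cell held 6.46% and 22 cells were needed for 50%. Ifit1, which binds viral RNA that lacks cap methylation, had 13.1 CPM in E2 and 17.5 CPM in placebo, and its 5 highest cells held 22.7% of the E2 UMIs and 64.5% of the placebo UMIs. Both class values thus rested more on single cells in the placebo library than in the E2 library.

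Among the oligoadenylate synthetases, which make the activator of RNase L, Oas2 had 26.1 CPM in E2 and 16.8 CPM in placebo (1.55, 1.27 to 1.91) and Oas1a had 34.4 CPM in E2 and 24.4 CPM in placebo (1.41, 1.19 to 1.68). Oas1a shared 37.0% of its last 60-base windows with Oas1g, so reads of the 2 genes may not be told apart. Oas3 (19.7 CPM in E2 and 18.6 CPM in placebo), Oasl2 (43.2 CPM in E2 and 44.2 CPM in placebo) and Oasl1 (8.91 CPM in E2 and 10.9 CPM in placebo) had intervals that include 1. Of the same kind of effector, Mx1 had 15.4 CPM in E2 and 19.1 CPM in placebo, and Cmpk2, the mitochondrial nucleotide kinase encoded beside Rsad2 on chromosome 12, had 8.49 CPM in E2 and 11.9 CPM in placebo. Isg15 had 105 CPM in E2 and 126 CPM in placebo (0.831, 0.768 to 0.901), while Usp18, which removes Isg15 from proteins and damps the receptor, had 11.1 CPM in E2 and 10.0 CPM in placebo.

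The factors and sensors of the pathway lay close to equal. Irf7 had 66.5 CPM in the E2 library and 57.1 CPM in the placebo library (1.17, 1.04 to 1.31). Stat2 and Irf9 are both part of the complex on the ISRE. Stat2 had 38.6 CPM in E2 and 45.6 CPM in placebo (0.846, 0.742 to 0.967), and Irf9 had 49.9 CPM in E2 and 60.2 CPM in placebo (0.829, 0.739 to 0.931). The RNA sensors Ifih1 (30.1 CPM in E2, 31.8 CPM in placebo) and Dhx58 (22.2 CPM in E2 and 21.5 CPM in placebo), the sensor Zbp1 (84.0 CPM in E2 and 86.9 CPM in placebo) and Ifi204, a DNA sensor of the interferon-inducible p200 family (105 CPM in E2 and 102 CPM in placebo), had intervals that include 1. Ddx58 had 25.6 CPM in E2 and 31.8 CPM in placebo (0.805, 0.686 to 0.947). Ifi47, an immunity-related GTPase that also answers to interferon-gamma, was at 28.7 CPM in E2 and 44.3 CPM in placebo (0.647, 0.563 to 0.746, log2 ratio -0.49).

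The remaining targets lay within 1.5-fold or rested on few UMIs. Rtp4, a chaperone of cell-surface receptors, had 42.5 CPM in E2 and 33.8 CPM in placebo (1.26, 1.09 to 1.46), the helicase Ddx60 had 13.3 CPM in E2 and 9.32 CPM in placebo (1.43, 1.09 to 1.91), and Xaf1, which binds an inhibitor of cell death, had 40.1 CPM in E2 and 34 CPM in placebo (1.18, 1.02 to 1.37). Ifit3 had 14.1 CPM in E2 and 11.0 CPM in placebo (1.28, 0.989 to 1.66), and its near copy Ifit3b, with which it shares 16.7% of its last 60-base windows, had 3.07 CPM in E2 and 1.55 CPM in placebo (1.98, 1.03 to 4.18), from 59 UMIs in E2 and 11 in placebo. Ifit2 (8.44 CPM in E2 and 9.60 CPM in placebo), Isg20 (14.9 CPM in E2 and 16 CPM in placebo), Trim30a (89.2 CPM in E2 and 92.5 CPM in placebo), the Schlafen gene Slfn5 (70.9 CPM in E2 and 74.8 CPM in placebo) and Phf11b (33.2 CPM in E2 and 32.9 CPM in placebo) had intervals that include 1. Phf11b shares 33.1% of its last windows with other Phf11 genes, and Ifitm3 shares 7.04% with Ifitm1 and Gm7676. Ifi44 had 21 UMIs in E2 and 4 in placebo (1.94, 0.653 to 7.76).

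Cells with many core UMIs were rare and about equally frequent in the libraries. A cell was called interferon-high when it had at least 10 core UMIs after thinning to 2000 UMIs. In monocyte/macrophage-like cells these were 30 of 1790 E2 cells (1.68%, 1.13 to 2.38%) and 10 of 700 placebo cells (1.43%, 0.687 to 2.61%). They carried 31.7% of the thinned core UMIs in the E2 library and 33.8% in the placebo library. At the other end, 68.9% of E2 and 68.1% of placebo cells had no core UMI after thinning. A further 19 E2 and 8 placebo cells lay near the limit, at 8 to 11 core UMIs.

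**Figure D3:**
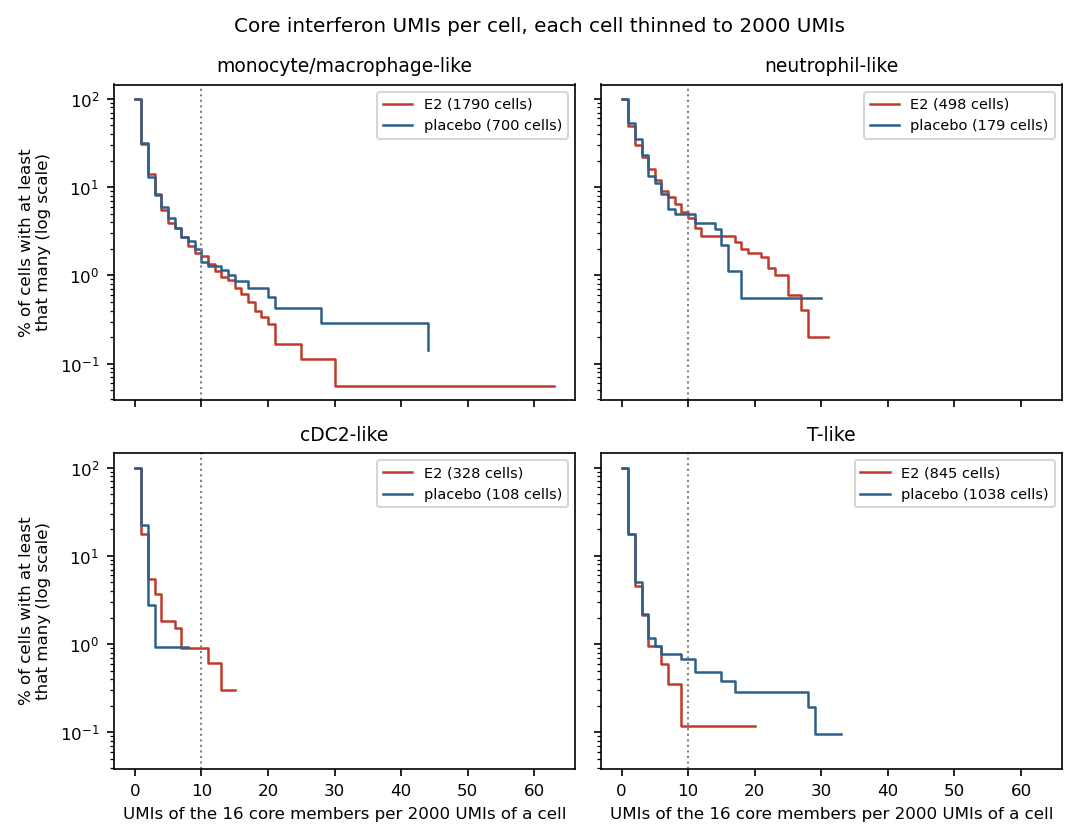
Percent of cells (log axis) with at least the given number of core UMIs per 2000 UMIs, for the E2 library (red) and the placebo library (blue) in the 4 compared classes, with the limit of 10 as a dotted line. In monocyte/macrophage-like and neutrophil-like cells the curves lie close to each other up to the limit, and 68.9% of E2 and 68.1% of placebo monocyte/macrophage-like cells have none.

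Removing the interferon-high cells, chosen for each core gene on the other 15 core genes, separated 2 kinds of member. The levels of Bst2 in the remaining cells were 212 CPM in E2 and 117 CPM in placebo (1.81, 1.68 to 1.96), those of Ifi27l2a were 1283 CPM in E2 and 745 CPM in placebo (1.72, 1.67 to 1.78) and those of Ifitm3 were 2259 CPM in E2 and 1751 CPM in placebo (1.29, 1.26 to 1.32). High cells held no more than 6.82% of the E2 and 5.57% of the placebo UMIs of any of these 3 genes. For Rsad2, high cells held 33.7% of the E2 UMIs and 73.1% of the placebo UMIs, and in the remaining cells the level was 11.4 CPM in E2 and 11.1 CPM in placebo (1.03, 0.788 to 1.35). Ifit1 was at 8.34 CPM in E2 and 5.34 CPM in placebo in the remaining cells (1.56, 1.09 to 2.30), the opposite side from its class value. Ifi47 kept its difference, at 24.6 CPM in E2 and 38.2 CPM in placebo (0.644, 0.552 to 0.751).

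Over the 34 members, Ifit1, Ifit2, Rsad2, Oas3, Oasl1, Isg20 and Phf11b changed sign when the high cells were left out. The median log2 ratio was then 0.04. Some of these moves were small: Oas3 went from 0.05 to -0.04, Isg20 from -0.05 to 0.02 and Phf11b from 0.01 to -0.02. Oasl2 stayed close to equal, with a ratio of 0.974 with all cells and 0.998 without the high cells. In the remaining cells Ifi27l2a and Bst2 were higher by at least 1.5-fold, where 0.851% of genes were, and no member was lower, where 1.24% of genes were.

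**Figure D4:**
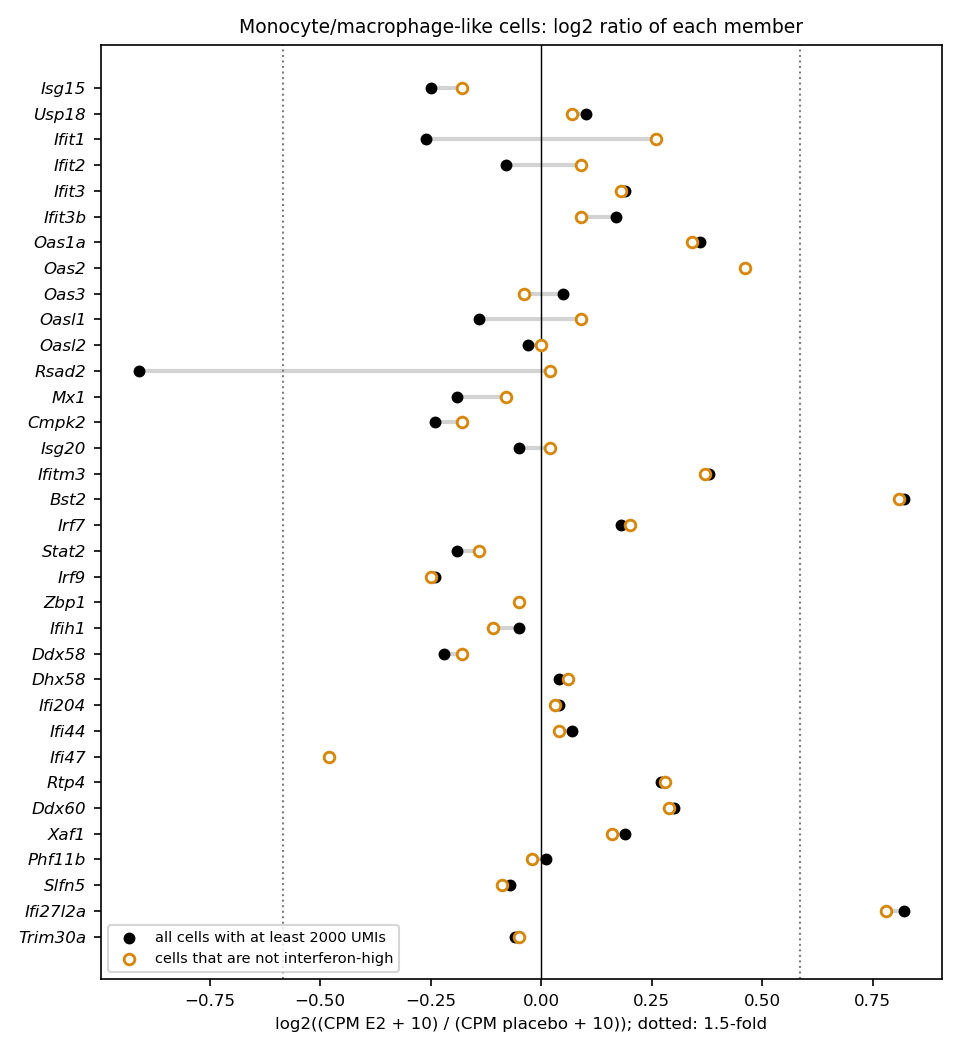
Log2 ratio of each member in monocyte/macrophage-like cells, in all cells with at least 2000 UMIs (filled) and in the cells that are not interferon-high (open), with the 1.5-fold limits dotted. Rsad2 lies at -0.91 with all cells and at 0.02 without the high cells, while Bst2 and Ifi27l2a keep their place.

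Within the class, clusters made without the members went in different directions. They are named here by number and leading genes. Cluster 12, led by Lyz1, Retnla and Ear2 (161 E2 and 55 placebo cells), had 388 core CPM in the E2 library and 69.8 CPM in the placebo library, a ratio of 5.56 (4.22 to 7.46). All 31 measured members lay above 0, 24 of them past 1.5-fold, where 5.53% of genes were higher. Isg15 was at 96.8 CPM in E2 and 22 CPM in placebo, and Rsad2 had 51 UMIs in E2 and 0 in placebo, which is at least 5.74-fold higher against a floor of 3 counts per library. Irf7 had 128 UMIs in E2 and 1 in placebo, a ratio of 43.2 with an interval of 7.62 to 1720. No member was lower past 1.5-fold, where 6% of genes were. The median log2 ratio was 1.03, or 0.98 with the 3 members at 0 in placebo set to that floor.

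A few cells held much of this cluster's core UMIs. In E2, 8 of its 161 cells held 50% of the core UMIs, and in placebo 6 of 55 cells did. Thinned to 2000 UMIs, the cells had 73.8 core UMIs per 100 cells in E2 (61.0 to 88.3) and 16.4 in placebo (7.48 to 31.1). Without the 3 interferon-high cells, all in E2, the ratio in CPM was 4.52 (3.43 to 6.08). High cells are defined by the core sum itself, so a core value without them is a description only, here and in the other groups of cells. The share of thinned cells with any core UMI was 26.9% in E2 (20.2 to 34.4%) and 16.4% in placebo (7.77 to 28.8%), and these intervals overlap.

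Cluster 6, led by the macrophage genes Ccl8, Pf4 and Stab1 (341 E2 and 91 placebo cells), had 280 core CPM in E2 and 112 CPM in placebo (2.50, 1.94 to 3.28). Of its 31 measured members, 28 lay above 0 and 13 were higher past 1.5-fold, where 4.84% of genes were, and none was lower, where 7.19% were. Irf7 was at 47.4 CPM from 142 UMIs in E2, against 3.50 CPM from 2 UMIs in placebo (13.5, 3.68 to 113). Oas1a was at 28.4 CPM from 85 UMIs in E2, against 5.25 CPM from 3 UMIs in placebo (5.40, 1.79 to 26.7). Placebo cells of this cluster were shallower, with a median of 5340 UMIs beside 8350 in E2, and their part in the difference was not tested. In thinned cells the core members had 56.0 UMIs per 100 cells in E2 (48.1 to 64.9) and 27.8 in placebo (17.0 to 42.9), while the share of cells with any core UMI was 25.3% in E2 and 25% in placebo. Bst2 in the same thinned cells was read in 45.6% of E2 and 27.8% of placebo cells, and Ifi27l2a in 54.4% of E2 and 30.6% of placebo cells.

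Cluster 8, led by Arg1, Ccl24, Mmp12 and Spp1 (132 E2 and 191 placebo cells), lay the other way. Its core members had 527 CPM in E2 and 780 CPM in placebo (0.675, 0.620 to 0.735). Of 31 measured members 27 lay below 0, and 7 were lower past 1.5-fold (Rsad2, Cmpk2, Isg20, Stat2, Irf9, Ddx58 and Trim30a), where 4.72% of genes were. Rsad2 was at 32.8 CPM in E2 and 126 CPM in placebo, where 1 cell held 117 of its 243 UMIs. Ifit3 and Ifi27l2a were higher, where 2.55% of genes were, although Ifit3 reads may be shared with Ifit3b. This cluster held 6 interferon-high cells of 129 in E2 and 7 of 186 in placebo, and without them the core ratio was 0.763 (0.677 to 0.859). It made up 7.06% of the class in E2 and 25.7% in placebo, so the class value mixes unlike cells in unlike proportions.

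The remaining large clusters lay between. Cluster 1, led by Apoc1, Gm9733 and Prtn3, had 461 core CPM in E2 and 341 CPM in placebo (1.35, 1.22 to 1.5), with 26 of 33 members above 0, 4 higher past 1.5-fold (1.59% of genes) and 1 lower, Ifi47 (2.41% of genes). In placebo 1 cell held 23.3% of that cluster's core UMIs. Cluster 3, led by Chil3, Plac8 and Ly6c2, had 573 CPM in E2 and 546 CPM in placebo (1.05, 0.953 to 1.16). Without its interferon-high cells, 8 in E2 and 1 in placebo, the core ratio was 0.797 (0.720 to 0.885). Of its members Ifit1 and Ifit2 were higher past 1.5-fold, where 1.83% of genes were, and none was lower, where 3.49% were. Cluster 7, led by Apoe, C1qb and Lgmn, had 278 CPM in E2 and 273 CPM in placebo (1.02, 0.879 to 1.18). In placebo 1 cell held 35.1% of the core UMIs of cluster 7. Without its interferon-high cells, 1 in each library, the core ratio was 1.42 (1.19 to 1.70). Oas3, Rtp4 and Bst2 were higher past 1.5-fold there, where 3.63% of genes were, and Ifit3 and Ifi47 lower, where 5.55% were.

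Bst2 and Ifi27l2a were higher in the E2 library in all 6 of these clusters. The log2 ratios of Bst2 ran from 0.41 in cluster 3 to 1.43 in cluster 12, and those of Ifi27l2a from 0.56 in clusters 3 and 7 to 1.71 in cluster 6. Ifitm3 ran from 0.01 in cluster 8, with 1359 CPM in E2 and 1345 CPM in placebo, to 1.05 in cluster 6, with 988 CPM in E2 and 471 CPM in placebo. With all 8 clusters that had at least 20 cells in each library weighted alike, 29 of 34 members lay above 0, where 43.9% of genes did, and the median was 0.27, beside -0.03 for all genes. Irf7 (70.5 CPM in E2, 41.3 CPM in placebo), Usp18 (15.5 CPM in E2 and 6.87 CPM in placebo), Ifi27l2a and Bst2 were then higher past 1.5-fold, where 0.631% of genes were, and no member was lower, where 0.774% of genes were. The log2 ratio of Rsad2 was -0.15 under that mix. Clusters 2 and 22 weighed as much in it as the large clusters. Cluster 2, mostly of cDC2-like cells, gave 65 E2 and 23 placebo monocyte/macrophage-like cells, with a core ratio of 2.33 (1.77 to 3.13). Cluster 22 gave 49 E2 and 22 placebo cells, with a ratio of 3.46 (1.90 to 6.81) from 72 core UMIs in E2 and 13 in placebo. The mix was not computed without them.

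**Figure D5:**
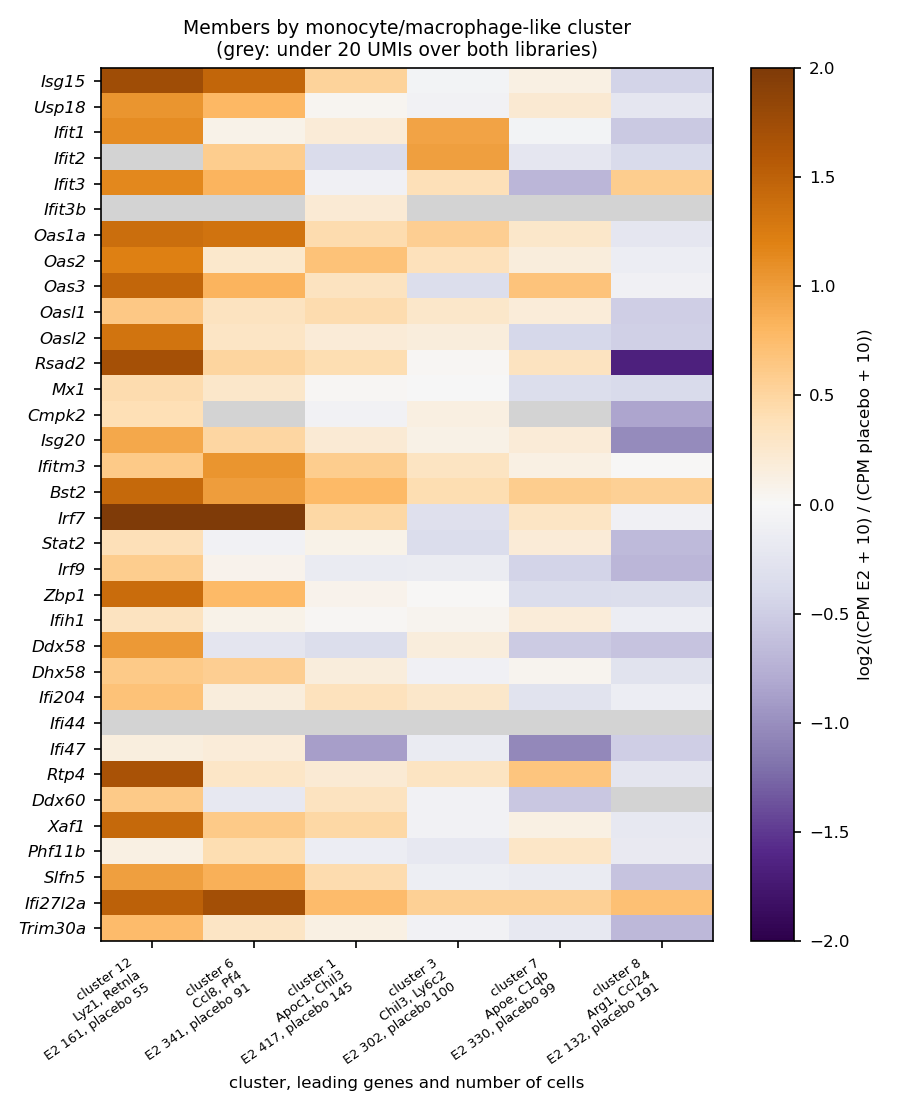
Log2 ratio, E2 over placebo, of each member in the 6 large monocyte/macrophage-like clusters, with brown for higher and purple for lower in the E2 library. Grey marks members under 20 UMIs, and the colour scale ends at 2 in both directions, which Irf7 passes in clusters 12 and 6. All measured members of cluster 12 are brown and 27 of 31 in cluster 8 are below 0.

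The gates divide the class in another way, by macrophage and classical monocyte markers. In the macrophage-like subset the core members had 230 CPM in the E2 library and 125 CPM in the placebo library (1.83, 1.64 to 2.06). Interferon-high cells, 4 of 814 in E2 and 0 of 261 in placebo, carried 28.5% of the thinned core UMIs in E2, and 1 of them had 63. Without them the mean was 0.363 core UMIs a thinned cell in E2 and 0.310 in placebo. No core UMI was read in 77.8% of thinned E2 and 76.2% of thinned placebo cells. Of 33 measured members 27 lay above 0, and Isg15, Irf7, Ifi27l2a, Ifitm3 and Bst2 were higher past 1.5-fold, where 1.36% of genes were, and none was lower, where 1.62% were. Isg15 was at 55.9 CPM in E2 and 27.3 CPM in placebo (2.04, 1.60 to 2.64), and Irf7 at 34.7 CPM in E2 and 10.1 CPM in placebo (3.44, 2.34 to 5.26). In the classical monocyte-like subset the core members had 556 CPM in E2 and 707 CPM in placebo (0.787, 0.745 to 0.831). There 22 of 33 members lay below 0. Rsad2 was lower, at 24.3 CPM in E2 and 80.1 CPM in placebo, where 2.69% of genes were, and Ifi27l2a was higher, at 1840 CPM in E2 and 1087 CPM in placebo, where 0.829% of genes were. The placebo cell with 117 of the 287 Rsad2 UMIs of the class was part of this Rsad2 value. Whether the 2 subsets differ beyond the spread between mice could not be tested.

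Of the 4 compared classes, neutrophil-like cells had the most members past 1.5-fold, in a class where many genes differed. Of 28 measured members 8 were higher past 1.5-fold, where 9.23% of 6012 measured genes were, and Ifi47 and Stat2 were lower, where 12% were. Ifitm3 had 2169 UMIs and 1177 CPM in E2, against 297 UMIs and 487 CPM in placebo (2.42, 2.14 to 2.74). Rtp4 had 173 CPM in E2 and 63.9 CPM in placebo (2.70, 1.93 to 3.87). Without the interferon-high cells 5 members were higher, where 10.6% of genes were, and 2 lower, where 12.2% were. Ifitm3 stayed apart at 1055 CPM in E2 and 464 CPM in placebo (2.27, 1.98 to 2.62) and Rtp4 at 148 CPM in E2 and 45.4 CPM in placebo (3.27, 2.11 to 5.30). In thinned cells Rtp4 was read in 19.7% of E2 (16.3 to 23.4%) and 7.82% of placebo cells (4.34 to 12.8%), beside 1.54% of E2 and 1.64% of placebo T-like cells. The unthinned shares in neutrophil-like cells were 27.6% in E2 and 12.8% in placebo.

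Ifit1 in neutrophil-like cells had 106 UMIs and 57.5 CPM in E2, against 10 UMIs and 16.4 CPM in placebo (3.51, 1.83 to 7.53), but high cells held 65.1% of its E2 UMIs. In the remaining cells Ifit1 was at 21.6 CPM in E2 and 10.3 CPM in placebo (2.09, 0.820 to 6.82), which includes no difference. Zbp1 had 45.0 CPM in E2 and 13.1 CPM in placebo (3.43, 1.66 to 8.22). Ifi204 had 44 UMIs in E2 and 1 in placebo, a ratio of 14.6 with an interval of 2.48 to 588. By contrast Isg15 had 408 CPM in E2 and 413 CPM in placebo (0.988, 0.855 to 1.14), and the core sum was 1005 CPM in E2 and 966 CPM in placebo (1.04, 0.948 to 1.14). Oasl2 was at 143 CPM in E2 and 210 CPM in placebo (0.683, 0.551 to 0.850).

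Interferon-high neutrophil-like cells were 22 of 498 E2 cells (4.42%, 2.79 to 6.61%) and 9 of 179 placebo cells (5.03%, 2.32 to 9.33%). They carried 39.5% of the core UMIs in E2 and 40.1% in placebo. The filter at 2000 UMIs left out 39 E2 and 64 placebo neutrophil-like cells. The 2 neutrophil-like clusters were filled unequally: cluster 4, led by Retnlg and S100a8, held 83.1% of the class in E2 and 47.7% in placebo, and cluster 15, led by Irg1, Il1f9 and Cxcl2, held 16.4% in E2 and 50.6% in placebo. Over the members measured in each, 7 of 25 were higher in cluster 4, where 8.33% of genes were, and 6 lower, where 17.6% were. In cluster 15 they were 3 of 12 higher, where 6.57% of genes were, and 1 lower, where 27.1% were. Rtp4 and Ifitm3 were higher in both. Rtp4 was at 175 CPM in E2 and 57.2 CPM in placebo in cluster 4, and at 192 CPM in E2 and 75.9 CPM in placebo in cluster 15. Ifitm3 was at 1258 CPM in E2 and 654 CPM in placebo in cluster 4, and at 813 CPM in E2 and 370 CPM in placebo in cluster 15. Ifi27l2a differed in cluster 4 (424 CPM in E2 and 247 CPM in placebo) and was at 205 CPM in E2 and 211 CPM in placebo in cluster 15. A difference between the clusters was not tested. With both clusters weighted alike, Ifit1, Ifit3, Zbp1, Rtp4, Ifitm3 and Ifi204 were higher past 1.5-fold, where 5.42% of genes were, and Oasl2, Stat2 and Ddx58 lower, where 15.6% were.

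In cDC2-like cells 3 of 31 measured members were higher past 1.5-fold, where 1.58% of genes were, and none was lower, where 2.43% of genes were. Ifi27l2a had 475 CPM in E2 and 244 CPM in placebo (1.95, 1.75 to 2.17), Rtp4 had 20.5 CPM in E2 and 6.95 CPM in placebo (2.96, 1.58 to 6.12) and Oas1a had 18.6 CPM in E2 and 8.84 CPM in placebo (2.10, 1.19 to 4.01). A single E2 cell held 279 of the 2223 Ifi27l2a UMIs. Irf9 was at 38.3 CPM in E2 and 55.6 CPM in placebo (0.689, 0.531 to 0.899), and the log2 ratios of Ifit2 and Ifih1 were 0.43 and -0.43. Ifitm3 (1573 CPM in E2 and 1486 CPM in placebo) and Bst2 (248 CPM in E2 and 234 CPM in placebo) were nearly equal here, unlike in monocyte/macrophage-like cells. The core members summed to 207 CPM in E2 and 177 CPM in placebo (1.17, 1.02 to 1.34). Interferon-high cells were 3 of 328 in E2 (0.915%, 0.189 to 2.65%) and 0 of 108 in placebo, which allows a share of up to 2.78%. The 3 cells carried 29.8% of the thinned core UMIs in E2. Without them the mean was 0.268 core UMIs a thinned cell in E2 and 0.306 in placebo, the other direction. The highest placebo cell, with 8 thinned core UMIs, lay under the limit and stayed in. Without high cells 15 of 31 members lay above 0 and 16 below, beside 20 above and 11 below with all cells. Only E2 cells were left out here, so the E2 mean and members high in those cells had to fall. The mean and the count are descriptions only. In placebo 1 cell held 52 of the 93 Isg15 UMIs. Another setting left out the 1% of cells highest in the core members from both libraries. Isg15 was then at 42.6 CPM in E2 and 25.2 CPM in placebo, and Rsad2 at 2.61 CPM in E2 and 0 in placebo. The core members Oas2, Oasl2 and Cmpk2 were lower in E2 under that setting. Without high cells Rtp4 and Ifi27l2a were the members past 1.5-fold, both higher, where 1.59% of genes were higher and 2.46% lower.

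In T-like cells most single members were slightly lower in the E2 library, with no member past 1.5-fold in either direction. The 34 members together summed to 1720 CPM in E2 and 1641 CPM in placebo (1.05, 1.02 to 1.08). Of all genes measured there, 0.818% were higher and 0.654% lower past it. Of 31 measured members 4 lay above 0, where 37.4% of genes did, and 27 below, with a median of -0.17 beside -0.07 for all measured genes. The core members summed to 145 CPM in E2 and 178 CPM in placebo (0.815, 0.739 to 0.899). Ifi47 was at 63.9 CPM in E2 and 87.9 CPM in placebo (0.727, 0.629 to 0.841), Ddx58 at 31.5 CPM in E2 and 44.3 CPM in placebo (0.712, 0.578 to 0.875) and Rsad2 at 4.84 CPM in E2 and 10.8 CPM in placebo (0.449, 0.265 to 0.737). The Rsad2 value came from 23 UMIs in 8 E2 cells and 61 UMIs in 15 placebo cells. Without high cells Rsad2 was at 4.90 CPM in E2 and 6.25 CPM in placebo (0.785, 0.443 to 1.37), which includes no difference. Ifi27l2a lay on the other side, at 978 CPM in E2 and 740 CPM in placebo (1.32, 1.27 to 1.38).

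Few cells again held part of this. Interferon-high T-like cells were 1 of 845 in E2 (0.118%, 0.00300 to 0.658%) and 7 of 1038 in placebo (0.674%, 0.272 to 1.38%), and they carried 8.20% of the core UMIs in E2 and 35.7% in placebo. Without high cells, chosen for each core gene on the other core genes, 8 of 31 members lay above 0. With the same high cells left out for every gene, 10 of 29 measured members did, where 37.1% of genes did. The median of -0.07 was level with the -0.07 of all genes. None passed 1.5-fold, where 0.830% of genes were higher and 0.614% lower, and Isg15 was at 59.3 CPM in E2 and 59.6 CPM in placebo. Ifitm3 in T-like cells was at 52.4 CPM in E2 and 81.5 CPM in placebo, but 3 E2 cells with at least 10 Ifitm3 UMIs held 62.2% of its UMIs and 8 such placebo cells held 82.0%. Those cells had a median of 7 (E2) and 3 (placebo) of the 12 monocyte/macrophage markers, beside 1 in the other T-like cells of each library. The others held 94 Ifitm3 UMIs in E2 (20 CPM) and 83 in placebo (15 CPM). The part of these cells in the class value was measured only in this way, and their nature was not tested.

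Among T subsets, regulatory T-like cells (340 E2 and 403 placebo cells) had the lowest core ratio, with 77.5 CPM in E2 and 148 CPM in placebo (0.524, 0.430 to 0.638). Of 24 measured members 20 lay below 0 and 5 were lower past 1.5-fold, where 3.45% of genes were: Ifit1 (2.08 CPM in E2 and 14.3 CPM in placebo), Irf7 (6.24 CPM in E2 and 18.2 CPM in placebo), Zbp1 (43.7 CPM in E2 and 74.3 CPM in placebo), Ifi47 (54.6 CPM in E2 and 87.7 CPM in placebo) and Ifitm3 (16.1 CPM in E2 and 89.5 CPM in placebo). None was higher, where 1.67% of genes were. The Ifitm3 value rested on 3 placebo cells that held 85% of its UMIs and had a median of 3 of the 12 monocyte/macrophage markers, without which it was at 16.1 CPM in E2 and 13.8 CPM in placebo. In placebo 1 cell held 18.4% of the core UMIs, and without high cells the core ratio was 0.579 (0.472 to 0.708). The share of thinned cells with any core UMI was 15.4% in E2 (11.7 to 19.8%) and 17.3% in placebo (13.7 to 21.4%). In CD4 T-like cells the core ratio was 0.931 (0.769 to 1.12) and in CD8 T-like cells 1.11 (0.915 to 1.35), while Ifi27l2a was at 979 CPM in E2 and 510 CPM in placebo in CD4 T-like cells and at 751 CPM in E2 and 380 CPM in placebo in CD8 T-like cells.

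Small classes show how 1 cell can set a value. In pDC-like cells the core members had 125 CPM in E2 and 514 CPM in placebo, but 1 of 21 placebo cells held 70 of 92 core UMIs (76.1%). Without the highest cell of each library the levels were 117 CPM in E2 and 129 CPM in placebo. That placebo cell had UMIs of 11 core members, and 21 UMIs of the pDC marker Siglech. In NK-like cells the core members had 86 UMIs in E2 and 8 in placebo (4.35, 2.11 to 10.4), with 1 of 90 E2 cells holding 66.7% of the thinned core UMIs. In cDC1-like cells the core sum was 105 CPM in E2 and 55.8 CPM in placebo (1.89, 1.44 to 2.50), while Ifitm3 was at 132 CPM in E2 and 287 CPM in placebo (0.459, 0.400 to 0.526). A single placebo cell held 123 of the 309 Ifitm3 UMIs there. In basophil-like cells (27 E2 and 96 placebo cells) Isg15 was at 232 CPM in E2 and 214 CPM in placebo.

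RNA of the ligands themselves was at the edge of detection. Of 19 type I and type III interferon genes, 18 had 0 UMIs in both libraries, and Ifnab had 1 UMI, in a placebo T-like cell. A count of 0 allows a share of cells with a UMI of up to 0.0554% in E2 and 0.0907% in placebo, and of up to 4.84% of E2 and 14.3% of placebo pDC-like cells. Ifng, the gene of interferon-gamma, had 175 UMIs in E2 and 204 in placebo, of which T-like cells held 313. The receptor genes Ifnar1 (107 CPM in E2, 113 CPM in placebo) and Ifnar2 (179 CPM in E2 and 158 CPM in placebo) were read in monocyte/macrophage-like cells of both libraries.

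The genes around the members, from lists of receptors and signalling genes, sensing genes, brakes and further targets, were mostly level or lower in the E2 library. In monocyte/macrophage-like cells 2 of 11 receptor and signalling genes lay above 0 and 9 below, with a median of -0.19 beside -0.03 for all genes, and Jak2, a kinase of the interferon-gamma receptor, was lower past 1.5-fold at 55.7 CPM in E2 and 107 CPM in placebo. Irf1, an early response factor, was at 78.6 CPM in E2 and 111 CPM in placebo. Of 4 measured brakes, Socs1, which inhibits the kinases, was lower at 18.9 CPM in E2 and 35.6 CPM in placebo. Of 29 measured further targets of type I interferon 8 lay above 0 and 21 below, with Helz2, a helicase, lower at 14.1 CPM in E2 and 27.3 CPM in placebo. The median of the further targets was -0.08, beside -0.03 for all genes. Of all measured genes 43.5% lay above 0, beside 17 of 34 members and 8 of 29 further targets. Outside that class, 2 further targets were picked after their values were seen. In neutrophil-like cells Cxcl10, a chemokine that attracts T cells, was at 11.9 CPM in E2 and 134 CPM in placebo (0.0888, 0.0528 to 0.144). It was read in 9 E2 and 5 placebo cells, so this value rested on few cells. Rtp4 and Ifitm3, which were higher in E2, were read in many more cells. They were read in 148 E2 and 31 placebo cells for Rtp4, and in 402 E2 and 114 placebo cells for Ifitm3. In T-like cells 24 of 28 further targets lay below 0, and Mndal, a p200-family gene, was higher at 190 CPM in E2 and 107 CPM in placebo.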

How the data were processed

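The deposited values are UMI counts per gene and barcode, made by the authors with Cell Ranger 3.1.0 on mm10, per the submitters' processing notes, and not normalized. No barcode had under 500 UMIs. How the authors selected these barcodes is not stated in the sources used here. All 34 members were matched by symbol in both matrices, 47310 of 47730 features matched GENCODE M21 by identifier, and promoter sequences came from RefSeq.

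Barcodes with under 200 genes (26 in E2, 15 in placebo) were removed. The highest Scrublet scores were removed as doublets at 0.8% per 1000 barcodes (266 and 97), since the automatic threshold marked only 1.49% and 0.0860%. The 95 barcodes found in both libraries were also removed, a choice made after seeing the data, and 36 of them had 1 copy at least 10-fold deeper than the other. A cell joined the class with the largest share of its markers at 1 UMI or more, given at least 3 markers and a lead of 10%. Near that limit lay 12.8% of E2 and 18.1% of placebo monocyte/macrophage-like cells. The 28 clusters were made without the members (scanpy 1.11.5, leidenalg 0.10.2, 2000 variable genes, 30 components, 15 neighbours, resolution 1).

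Ratios are of summed counts, with exact conditional binomial intervals, and shares have exact Clopper-Pearson intervals. The script for ratios was tested on simulated data (numpy 2.4.6, scipy 1.17.1). With 1 library a group no p-value was computed, and the spread between mice cannot be estimated. The members, gene lists and markers were chosen with earlier results of these data known. Values in both libraries are given for the members highest in a class and for the 5 with the largest log2 ratio in each compared class, and other members are named beside their role. For 1 gene of the pathway lists no value of its own is reported here. Alternatives covered the gates, doublets, shared barcodes, scaling, pseudocount, thinning, the limit for high cells and the cluster mix.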

Additional observations from a re-analysis of the deposited data

Results flagged for a closer look

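The summed level of the 16 core members lay on opposite sides of 1 in groups of cells under the same comparison, with counting intervals that exclude 1. The ratio of the E2 to the placebo library was 5.56 in monocyte/macrophage-like cluster 12, 2.5 in cluster 6, 1.35 in cluster 1 and 1.17 in cDC2-like cells. It was 0.675 in monocyte/macrophage-like cluster 8, 0.942 in monocyte/macrophage-like cells as a whole, 0.815 in T-like cells and 0.524 in regulatory T-like cells. In monocyte/macrophage-like cells as a whole the value turned to a log2 ratio of 0.50 with the clusters weighted alike, small ones as much as large ones. Cluster 8 made up 7.06% of that class in E2 and 25.7% in placebo. With 1 library a group, none of these differences between cell groups was tested. Single cells weighed on several of them: the highest placebo cell held 18.3% of the core UMIs in cluster 8, 23.3% in cluster 1 and 18.4% in regulatory T-like cells, and the highest E2 cell held 13.5% in cluster 12. In cDC2-like cells 3 E2 cells carried 29.8% of the thinned core UMIs, and the remaining cells had a mean of 0.268 in E2 and 0.306 in placebo. Those 3 cells were chosen on the core sum and no placebo cell was removed, so the E2 mean had to fall. The highest placebo cell there, with 8 thinned core UMIs, stayed in.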

How the results depend on the processing

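No paired analysis was possible because each group has 1 library, and for the same reason no replicate could be left out. Summed over the 34 members, the log2 ratio was 0.39 in monocyte/macrophage-like, 0.52 in neutrophil-like, 0.18 in cDC2-like and 0.07 in T-like cells. With the core members only it was -0.09, 0.06, 0.22 and -0.29 in these classes, so the sign of the first and last turned. In monocyte/macrophage-like cells it was 0.36 with classes from clusters and with thinned cells, 0.44 with median-of-ratios scaling, 0.42 without the highest 1% of cells, 0.50 with subsets weighted alike and 0.51 with the same cluster mix. In neutrophil-like cells it was 0.39 without doublet removal and 0.40 with the same cluster mix. In cDC2-like cells it was 0.41 with classes from clusters, 0.28 with median-of-ratios scaling and 0.02 with thinned cells. In T-like cells it was 0.18 with classes from clusters and with median-of-ratios scaling, 0.17 without doublet removal and 0.02 with thinned cells. Median-of-ratios scaling itself shifted all genes of T-like cells by 0.112.

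In cells that are not interferon-high the log2 ratio was 0.40, 0.57, 0.08 and 0.16 in the same order of classes. A limit of 5 core UMIs made it 0.44 in monocyte/macrophage-like, 0.44 in neutrophil-like and 0.09 in T-like cells. Median-of-ratios scaling made it 0.46 in monocyte/macrophage-like, 0.17 in cDC2-like and 0.28 in T-like cells. Classes from clusters made it 0.30 in cDC2-like and 0.21 in T-like cells, and no doublet removal made it 0.25 in T-like cells. Members past 1.5-fold numbered 3, 10, 3 and 0. A pseudocount of 1 CPM gave 6 in monocyte/macrophage-like, 8 in cDC2-like and 6 in T-like cells, and classes from clusters gave 6 in cDC2-like cells. The causes of these shifts were not tested.

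The difference in the share of interferon-high cells ran from -0.52 to 0.25 percentage points in monocyte/macrophage-like, from -0.83 to 1.25 in neutrophil-like, from -0.02 to 1.63 in cDC2-like and from -0.56 to -0.02 in T-like cells. Of the members past 1.5-fold, 6 fell inside it somewhere: Rsad2 in monocyte/macrophage-like cells (-0.15 with the same cluster mix), Ifi47, Slfn5 and Ifi27l2a in neutrophil-like cells (-0.42, 0.46 and 0.44 with that mix), Stat2 there (-0.37 without doublet removal) and Oas1a in cDC2-like cells (0.27 with thinned cells). Depth limits the low genes most: 10 members of cluster 12 and 9 of cluster 6 had at most 3 placebo UMIs.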

Other observations

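Irf1, an early response factor that also answers to interferon-gamma, was lower in the E2 library in all 4 compared classes. It was at 78.6 CPM in E2 and 111 CPM in placebo in monocyte/macrophage-like cells and at 160 CPM in E2 and 252 CPM in placebo in T-like cells. Socs1, which brakes the kinases of interferon receptors, was at 59.7 CPM in E2 and 197 CPM in placebo in neutrophil-like cells. Among the members, Ifi47 lay on that side and Ifi27l2a on the other side in all 4 classes. Ifng RNA was read in 97 E2 and 108 placebo cells. These genes were picked after their values were seen, the 4 classes share their 2 libraries, and no cause was tested.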
